A study of Mus musculus with 6 samples.

Results

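The genes described here are those of the mouse major histocompatibility complex (MHC) and of antigen presentation. They are the rows of the deposited expression table whose Ensembl ID maps to a symbol beginning with H2- or to 1 of 22 listed symbols, which gave 62 of 41128 genes. Of these, 45 carry an H2- symbol, and 1 of the 45, H2-Ke6, lies in the complex but encodes a steroid dehydrogenase and no MHC chain. A mean of at least 1 RPM (reads scaled to the depth of each library) over all 6 libraries was reached by 41 of the 62, and all 22 listed genes were among them. The other 21 were H2- genes that stayed at or under 1.94 RPM in every library.

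The study measured polyadenylated RNA of bone marrow cells from C57BL mice given YH250 under the skin at 2 mg per kg (3 libraries) or the solvent DMSO (3 libraries), with marrow taken 16 h later. YH250 is a small molecule that the submitters describe as an antagonist of the interaction between p300 and catenin. In both groups the sort was for long-term repopulating stem cells of the blood, which lack lineage markers, CD41 and CD48 and carry Sca1, c-Kit and CD150. The labels give no age or sex, number the libraries 1 to 3 in each group, and do not say that each library came from its own animal, so the p-values measure only the spread between these libraries.

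MHC class I molecules sit on nearly all nucleated cells and show peptides from inside the cell to CD8+ T cells and natural killer cells. The peptides are cut by the proteasome, carried into the endoplasmic reticulum by the TAP transporter, trimmed there and loaded with the help of tapasin. Class II molecules are best known on B cells, dendritic cells and macrophages, where the invariant chain Cd74 guides them to endosomes and H2-DM exchanges their peptide. Nlrc5 activates class I genes and Ciita class II genes, both through the RFX complex and the factors that bind the X and Y boxes of MHC promoters.

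The libraries differed from each other in ways the treatment does not explain. The low values put 1 read at 0.0321 to 0.0456 RPM, so that 21.9 to 31.1 reads lay behind 1 RPM. A gene listed at 0 is therefore bounded, for counting error only, by the 0.0964 to 0.137 RPM that 3 reads would give. Libraries of the same number deviated together from their group means, with correlations of 0.55, 0.26 and 0.70 over the tested genes for numbers 1, 2 and 3. Between different numbers the highest correlation was 0.14, for YH250 1 and DMSO 2, so the pairing is weakest at number 2. Cd48, whose protein the sort was to exclude, had 13.1, 66.9 and 252 RPM in YH250 1, 2 and 3, against 10.2, 31.5 and 258 RPM in DMSO 1, 2 and 3. Slamf1, which encodes the CD150 used to select the cells, had 31.5, 3.92 and 1.54 RPM in the YH250 libraries and 35.5, 0.515 and 4.69 RPM in the DMSO libraries. YH250 2 had the highest level of the stromal gene Lepr, 58.2 RPM against at most 7.99 RPM elsewhere.

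Per kilobase of exon, B2m was the most abundant of the 62 genes, at 2986 ± 547 RPM per kb (SD over all 6 libraries). H2-D1 followed with 580 ± 203, Cd74 with 479 ± 481 and H2-K1 with 426 ± 76.5 RPM per kb, and these 3 did not differ beyond their spread. Psme1, Psmb8, Psme2 and H2-T23 came next, at 139 ± 17.7, 127 ± 28.5, 127 ± 36.5 and 126 ± 21.2 RPM per kb, again within their spread. The class II chains H2-Ab1, H2-Aa and H2-Eb1 had 61.6 ± 41.5, 38.9 ± 23.1 and 35.9 ± 25.9 RPM per kb. Ciita, the activator of class II, was the lowest of the 22 listed genes at 0.225 ± 0.124 RPM per kb.

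None of the 41 tested members passed an adjusted p of 0.05 in the comparison of treatments (limma on log2(RPM + 1), Benjamini-Hochberg over 13597 genes), where 0% of all tested genes were called. Their smallest adjusted p was 0.999. At an unadjusted p under 0.05 there were 0 of the 41, against 1.7% of all genes. With the replicate number as a block 8 of 41 had an unadjusted p under 0.05 (19.5%), against 7.44% of all genes, and the adjusted p of these 8 was 0.66. Higher in YH250 were Cd74 (limma with the block, unadjusted p = 0.00183), H2-Ab1 (0.0102), H2-Eb1 (0.0106), H2-D1 (0.0187), Psmb8 (0.0481) and H2-M3 (0.0493). Lower in the same fit were Rfxank (0.0363) and Nlrc5 (0.0436). In mean log2 level, 32 of the 41 were higher in YH250 (78.0%), against 51.7% of all genes. The difference was above 0 at all 3 replicate numbers for 13 members (31.7%, against 16.1% of all genes) and below 0 at all 3 for 3 members (7.32%, against 15% of all genes). Groups that did not overlap were seen for 2 members higher in YH250 (4.88%, against 3.79% of all genes) and 1 lower (2.44%, against 3.68%). Members lie close together in the genome and share regulators, so they are not independent of each other. Summed over all genes, RPM came to 779144, 849188 and 936080 in YH250 1, 2 and 3. In DMSO 1, 2 and 3 it came to 699979, 756066 and 959240. The part of these unequal totals in the shares above was not tested. After quantile normalization 7 of the 41 signs differed.

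**Figure D1:**
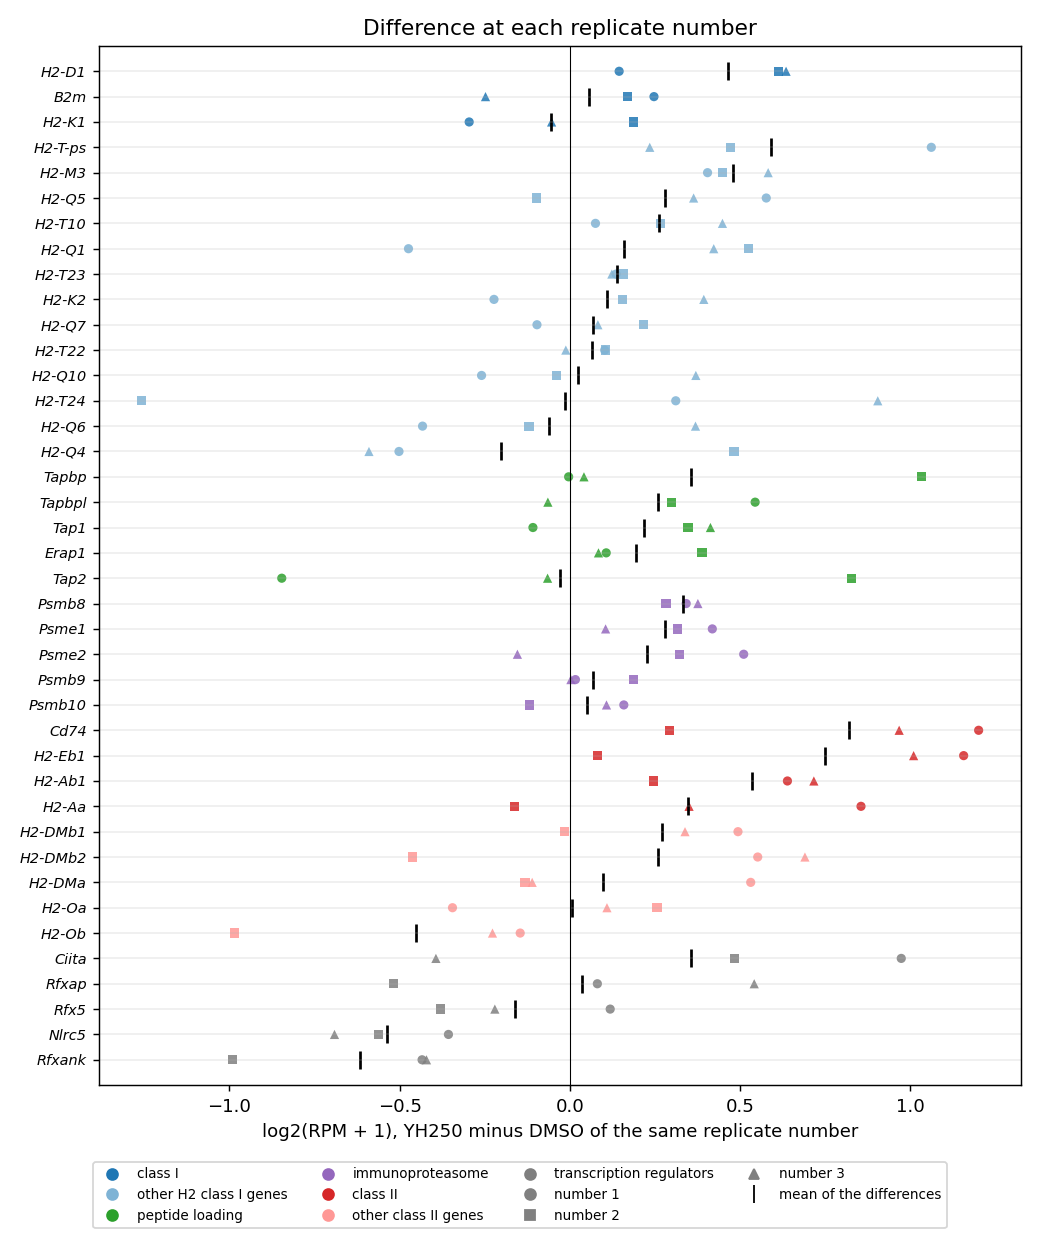
Differences in log2(RPM + 1) between YH250 and DMSO libraries of the same replicate number (x axis) for the 40 tested MHC and presentation genes (y axis, grouped by role and coloured by it). Circles, squares and triangles are numbers 1, 2 and 3 and the black bar is their mean. Cd74, H2-Ab1 and H2-Eb1 lie right of 0 at all 3 numbers, and Nlrc5, Rfxank and H2-Ob lie left of 0 at all 3.

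Among the class I chains, H2-D1 had the higher mean in YH250 while H2-K1 and B2m differed little in mean. H2-D1, a classical class I heavy chain (chromosome 17, 35262730 to 35267499 on GRCm38), had 1545, 2401 and 1257 RPM in YH250 1, 2 and 3, against 1397, 1569 and 809 RPM in DMSO 1, 2 and 3. It was higher in YH250 at each number, yet the groups overlapped, because YH250 3 lay below DMSO 1 and 2. The log2 difference was 0.46 ± 0.32 (SE, 95% interval -0.25 to 1.18), and its unadjusted p was 0.0187 with the replicate block (limma, adjusted p = 0.66). H2-K1, the other classical heavy chain of this strain (chromosome 17, 33996017 to 34000347), had 1076, 1596 and 1039 RPM in the YH250 libraries and 1321, 1403 and 1078 RPM in the DMSO libraries. Its log2 difference of -0.05 ± 0.23 (95% interval -0.57 to 0.46) changed sign between numbers. B2m, the light chain of all class I molecules (chromosome 2, 122147686 to 122153083), had 2262, 2765 and 2751 RPM in YH250 and 1906, 2457 and 3266 RPM in DMSO, a log2 difference of 0.06 ± 0.23.

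The balance of H2-K1 to H2-D1 did not overlap between the groups, a ratio that was singled out after its values were seen. Per kilobase it was 0.612, 0.584 and 0.726 in YH250 1, 2 and 3, against 0.830, 0.785 and 1.17 in DMSO 1, 2 and 3. This ratio was not tested, and neither gene was called. The other ratios that were computed between pairs of genes all overlapped between the groups. Of the 50-base stretches of their annotated transcripts, 9.63% in H2-K1 and 12.8% in H2-D1 also occur in another gene, so that some reads of this length cannot be assigned to either with certainty. The median log2 difference of the 3 class I genes was 0.06, against 0.02 over all tested genes. It was -0.11 after quantile normalization and lay between -0.02 and 0.17 when 1 library was left out.

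The promoters of H2-D1 and H2-K1 are shown because these near-copies carry the same kinds of motif in the same order. The ratio of their transcripts did not overlap between the groups, but it was not tested. The sequences are the 180 bases before a transcription start in RefSeq on GRCm38.p6, H2-D1 at chr17:35262914-35263093 on the plus strand and H2-K1 at chr17:34000334-34000513 on the minus strand. Capitals mark, on either strand, letters of a kappa B site (GGGGANTCC), of an interferon response element (TTTCNNTT), of the X2 half-site (TGACG) and of the Y box (CTGATTGG).
H2-D1: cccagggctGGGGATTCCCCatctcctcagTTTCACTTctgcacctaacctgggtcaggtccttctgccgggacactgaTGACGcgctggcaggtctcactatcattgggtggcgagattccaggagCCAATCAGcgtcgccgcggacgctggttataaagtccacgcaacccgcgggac
H2-K1: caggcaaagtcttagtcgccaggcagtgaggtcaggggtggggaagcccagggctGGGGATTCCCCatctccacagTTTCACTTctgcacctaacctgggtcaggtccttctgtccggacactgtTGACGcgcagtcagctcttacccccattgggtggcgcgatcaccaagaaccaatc
The kappa B match begins at -171 in H2-D1 and at -125 in H2-K1, counted from the start, and is matched on both strands at overlapping positions. In H2-K1 the Y box begins at -6 and runs over the start, so the printed stretch holds only its first letters. In windows from 250 bases before to 50 after the start, the kappa B letters were found in 1.19% of all 32851 RefSeq windows, in 2 of 3 class I genes and in 3 of the 21 other H2 class I genes with a window. The Y box was found in 4.1% of all windows, in 2 of 3 class I genes and in 12 of those 21. The interferon response letters are common, in 23.9% of all windows, and were found in all 3 class I genes and in 13 of those 21. A gene counts if any of its windows matched, whereas the percentages are of single windows, so the 2 shares are not strictly alike. A match is a description of letters and shows no binding.

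Of the 30 other H2 class I genes, 13 reached a mean of 1 RPM, and none passed the test. Not all of the 13 are annotated as coding. H2-K2 and H2-T-ps are annotated as unprocessed pseudogenes, and H2-Q5 and H2-T10 as polymorphic pseudogenes. H2-M3, which presents formylated peptides (chromosome 17, 37270220 to 37274484), had 32.3, 39.3 and 43.6 RPM in YH250 1, 2 and 3, against 24.1, 28.6 and 28.8 RPM in DMSO 1, 2 and 3. All YH250 libraries lay above all DMSO libraries, with a log2 difference of 0.48 ± 0.25 (95% interval -0.09 to 1.04). H2-T23, which encodes Qa-1 and is read by inhibitory receptors of natural killer cells, had 431, 413 and 303 RPM in YH250 and 392, 370 and 278 RPM in DMSO. It was higher in YH250 at each number by 0.12 to 0.16 on the log2 scale, and the groups overlapped.

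The Qa-2 genes H2-Q7 and H2-Q6 were the next most abundant of this group. H2-Q7 had 315, 315 and 245 RPM in YH250, against 336, 271 and 231 RPM in DMSO, and H2-Q6 had 232, 208 and 185 RPM in YH250, against 314, 226 and 143 RPM in DMSO. Both overlapped between groups. They share 26.5% and 35.0% of their 50-base stretches with other genes, so their split is uncertain. H2-T22 and H2-T10, near-copies known as ligands of gamma delta T cells, share 53.5% and 50.4%. H2-T22 had 76.4, 73.4 and 60.0 RPM in YH250 and 71.1, 68.2 and 60.5 RPM in DMSO. H2-T10 had 19.6, 18.4 and 17.0 RPM in YH250, against 18.5, 15.1 and 12.2 RPM in DMSO, and both genes overlapped between the groups.

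The other 7 tested genes of this kind are given by their group means. H2-Q4, H2-Q5, H2-K2, H2-T24, H2-Q10, H2-T-ps and H2-Q1 averaged 31.0, 21.3, 6.42, 7.86, 3.49, 4.003 and 1.32 RPM in YH250, against 34.4, 17.1, 6.08, 6.23, 3.47, 2.41 and 1.04 RPM in DMSO. Their groups overlapped. H2-Q4 is also uncertain, with 36.4% shared stretches, as are H2-Q5 with 36.4% and H2-T-ps with 29.4%. The median log2 difference of the 13 was 0.11 and lay between -0.02 and 0.30 when 1 library was left out. Below the minimum were 17 genes, and 9 of them were listed at 0 in every library, among them genes of the H2-M10 family, which is known from the vomeronasal organ. H2-T3, which encodes the thymus leukemia antigen, reached the highest value of the 17, with at most 0.749 RPM in the YH250 libraries and 1.94 RPM in DMSO 1. H2-Ke6, the gene of the complex that encodes no MHC chain, had 113, 135 and 101 RPM in YH250 and 107, 115 and 84.9 RPM in DMSO, with overlapping groups. It shares 70.5% of its 50-base stretches with other genes, among them Gm20427, so its level is uncertain.

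None of the 5 peptide loading genes passed the test, and 4 of 5 had higher mean log2 levels in YH250. Tapbp, which encodes tapasin and bridges TAP to class I, had 109, 179 and 127 RPM in YH250 1, 2 and 3, against 109, 86.8 and 124 RPM in DMSO 1, 2 and 3. The excess came from YH250 2, with log2 differences of 1.03 at number 2 and of 0.00 and 0.04 at numbers 1 and 3. Tapbp shares 23.2% of its 50-base stretches with other genes. Tap2, a subunit of the peptide transporter, had 34.2, 93.6 and 33.4 RPM in YH250 and 62.3, 52.3 and 35.0 RPM in DMSO. YH250 2 was again the highest, while YH250 1 lay below DMSO 1 by 0.85 on the log2 scale.

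Tap1, the other transporter subunit, had 74.5, 98.7 and 74.2 RPM in YH250, against 80.4, 77.4 and 55.5 RPM in DMSO. Tapbpl, a peptide editor related to tapasin, had 64.8, 50.0 and 41.7 RPM in YH250 and 44.1, 40.5 and 43.7 RPM in DMSO. Erap1, the aminopeptidase that trims peptides, had 37.1, 66.1 and 56.5 RPM in YH250 and 34.3, 50.3 and 53.3 RPM in DMSO, higher at each number with overlapping groups. The list's median log2 difference was 0.22, and it was 0.08 without YH250 2 and at most 0.29 without another library.

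All 5 genes of the immunoproteasome and its PA28 cap had higher means in YH250, and none passed the test. Psmb8, a catalytic subunit induced by interferon, had 395, 455 and 593 RPM in YH250 1, 2 and 3, against 312, 374 and 457 RPM in DMSO 1, 2 and 3. It was higher at each number by 0.28 to 0.38 on the log2 scale, and the groups overlapped. Across the groups its log2 difference was 0.33 ± 0.24 (limma, adjusted p = 0.999). Psme1, a subunit of PA28, had 333, 333 and 343 RPM in YH250 and 249, 268 and 318 RPM in DMSO, and the groups did not overlap. Its log2 difference was 0.28 ± 0.20.

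Psme2, its partner, had 209, 217 and 283 RPM in YH250 and 146, 173 and 315 RPM in DMSO, with the highest value in DMSO 3, and shares 28.3% of its 50-base stretches with other genes, mostly the copy Psme2b. The other catalytic subunits Psmb9 and Psmb10 were nearly even, at 121 ± 19.2 and 127 ± 13.6 RPM in YH250 against 116 ± 22.5 and 122 ± 3.32 RPM in DMSO (SD, n = 3 each). The list's median was 0.23 and lay between 0.04 and 0.38 when 1 library was left out. Per kilobase, Psmb8 stood to Psmb5, the subunit it replaces, at 0.724, 0.835 and 1.14 in YH250 and at 0.760, 0.793 and 0.900 in DMSO, so the groups overlapped.

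**Figure D2:**
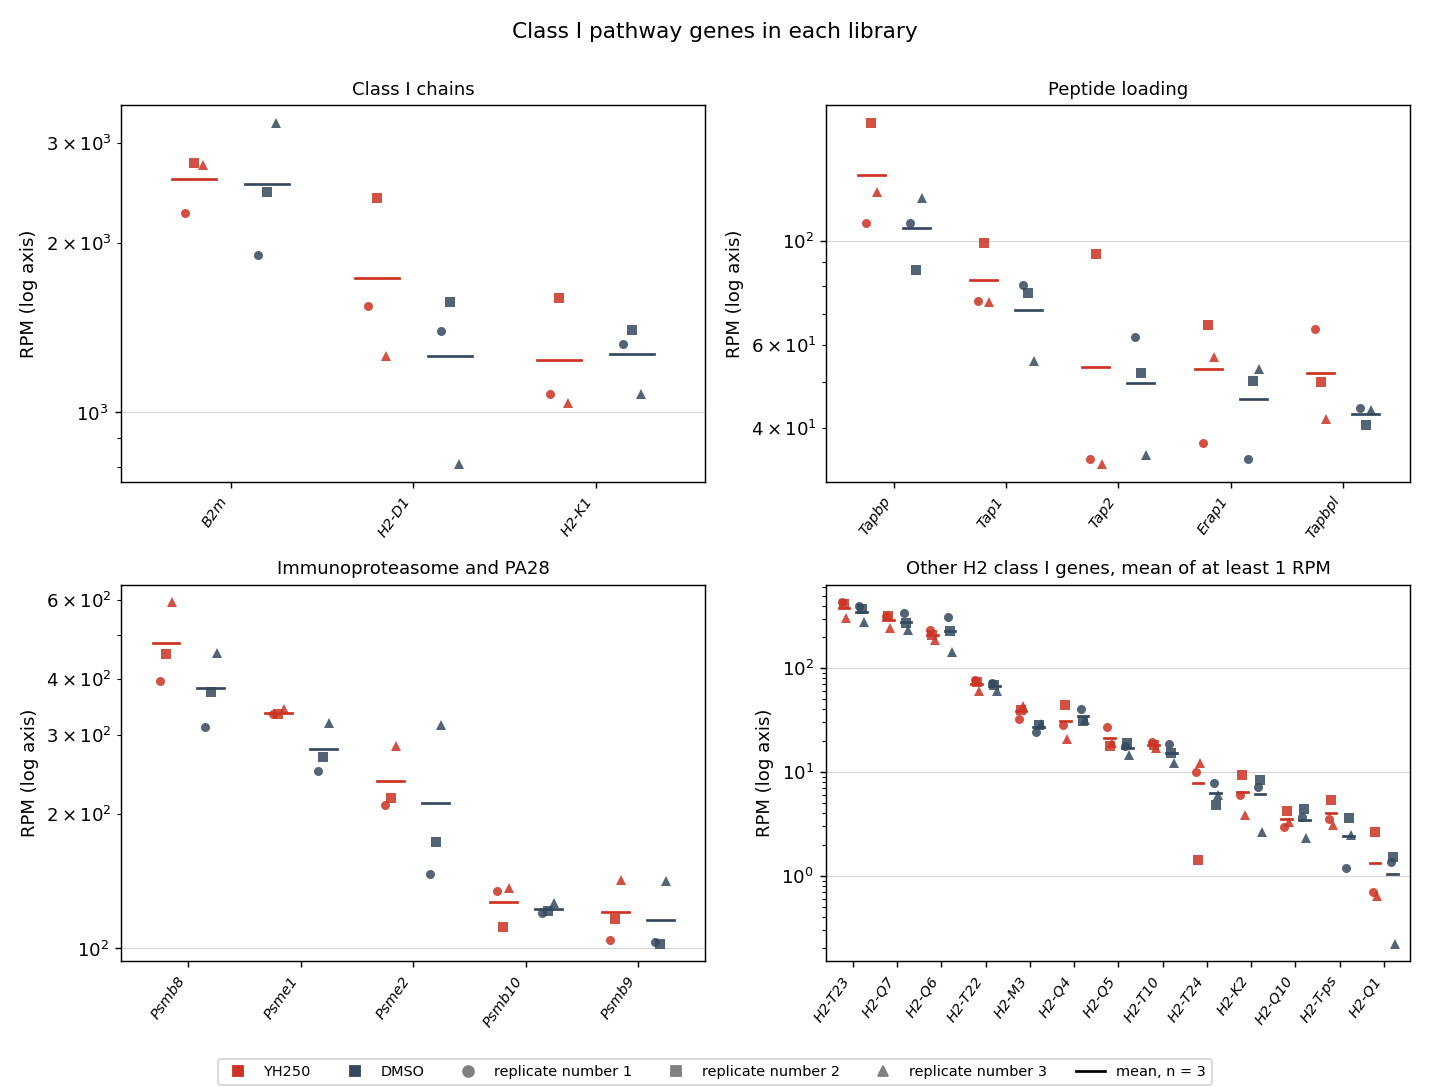
RPM on a log axis (y) for class I chains, peptide loading genes, immunoproteasome genes and other tested H2 class I genes (x, one gene per tick). Red is YH250 and dark slate is DMSO, circles, squares and triangles are replicate numbers 1, 2 and 3, and bars are means of 3 libraries. The groups overlap for all genes shown except H2-M3 and Psme1.

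The class II chains had higher means in YH250, with a wide spread between libraries and no gene past the test. Cd74, the invariant chain (chromosome 18, 60803848 to 60812652), had 338, 484 and 2292 RPM in YH250 1, 2 and 3, against 147, 395 and 1172 RPM in DMSO 1, 2 and 3. It was higher in YH250 at each number, by 1.20, 0.29 and 0.97 on the log2 scale, but the values of both groups ran through each other. The log2 difference of 0.82 ± 1.03 had a 95% interval of -1.75 to 3.40, and its unadjusted p was 0.00183 with the replicate block (limma, adjusted p = 0.66).

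H2-Ab1, the beta chain of the I-A molecule (chromosome 17, 34257689 to 34269419), had 88.8, 133 and 348 RPM in YH250, against 56.6, 112 and 211 RPM in DMSO. H2-Aa, its alpha chain (chromosome 17, 34282744 to 34287823), had 98.1, 107 and 285 RPM in YH250, against 53.8, 120 and 223 RPM in DMSO. H2-Ab1 was higher in YH250 at each number, whereas H2-Aa was lower at number 2. Their log2 differences were 0.53 ± 0.60 and 0.35 ± 0.58. Per kilobase the ratio of H2-Aa to H2-Ab1 was 0.747, 0.546 and 0.554 in YH250 and 0.642, 0.725 and 0.714 in DMSO, so the chains of I-A moved together over libraries in which each varied by several fold.

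H2-Eb1, the beta chain of I-E (chromosome 17, 34305867 to 34316674), had 43.2, 57.9 and 164 RPM in YH250, against 18.8, 54.7 and 80.9 RPM in DMSO. It was higher in YH250 at each number, with a log2 difference of 0.75 ± 0.63. Its partner H2-Ea-ps, known to be defective in C57BL strains, was listed at 0 in 5 libraries and at 0.08 RPM in YH250 2. The median log2 difference of the 4 class II genes was 0.64, with medians of 1.01, 0.16 and 0.84 at numbers 1, 2 and 3. Leaving out 1 library, which unbalances the numbers, gave -0.02 without YH250 3, 1.05 without YH250 1, 0.07 without DMSO 1 and 1.09 without DMSO 3. Leaving out both libraries of a number gave 0.51 without number 1 and 0.53 without number 3.

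B cell markers moved with this median, and their part in it was not tested. The 7 tested B cell markers had a median log2 difference of 0.61, with medians of 0.92, -0.01 and 0.43 at numbers 1, 2 and 3. Summed over all 8 markers of the list, they had 171, 263 and 763 RPM in YH250 1, 2 and 3, against 67.3, 267 and 497 RPM in DMSO 1, 2 and 3. Pax5, the factor that fixes B cell identity, lay between 0 and 0.273 RPM in all 6 libraries. Of the 7 B cell markers, 1 was above 0 at all 3 numbers, against 3 of the 4 class II genes and 16.1% of all genes. The median differences between YH250 and DMSO were 0.55 for dendritic cell, 0.83 for T and NK cell, 0.29 for monocyte and macrophage and 0.20 for endothelial and stromal markers. At numbers 1, 2 and 3 these medians were 0.12, 1.08 and 0.08 for dendritic cell and 0.94, 1.24 and 0.11 for T and NK cell markers. They were 0.76, -0.03 and -0.14 for monocyte and macrophage and 0.41, 0.88 and 0.27 for endothelial and stromal markers. The 6 stem cell markers had a median of -0.33, with 4 of 6 below 0 and, against 15% of all genes, 3 below 0 at all 3 numbers. One of them, Kit, which encodes the c-Kit of the sort, had 218, 160 and 130 RPM in YH250 1, 2 and 3, against 318, 265 and 213 RPM in DMSO 1, 2 and 3. Its log2 difference was -0.66 ± 0.26, with an unadjusted p of 0.0342, or 0.00146 with the replicate block (limma, adjusted p = 0.999 and 0.66). Ly6a, which encodes the Sca1 of the sort, went the other way at all 3 numbers. It had 122, 208 and 319 RPM in YH250 and 80.9, 155 and 241 RPM in DMSO. The log2 difference of Ly6a was 0.47 ± 0.45, with an unadjusted p of 0.0117 with the replicate block (limma, adjusted p = 0.66). In sorted bulk cells, a change in the number of cells of a type and a change in RNA per cell cannot be told apart.

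Of the 9 other class II genes, 5 were tested and none passed the test between the treatments. H2-DMa, the alpha chain of the peptide exchanger H2-DM, had 139, 205 and 225 RPM in YH250, against 95.6, 225 and 243 RPM in DMSO. Its beta chains are H2-DMb1, with 45.1, 38.5 and 33.4 RPM in YH250 and 31.8, 39.0 and 26.2 RPM in DMSO, and H2-DMb2, with 15.8, 17.7 and 48.1 RPM in YH250 and 10.5, 24.8 and 29.4 RPM in DMSO. These near-copies share 22.7% and 25.9% of their 50-base stretches with other genes, mostly with each other. For all 3 genes the groups overlapped.

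H2-Ob, the beta chain of H2-DO, which restrains H2-DM in B cells, had 15.6, 26.9 and 84.8 RPM in YH250, against 17.3, 54.2 and 99.5 RPM in DMSO. It was the only tested class II gene below 0 at all 3 numbers, with log2 differences of -0.15, -0.99 and -0.23. H2-Oa, its alpha chain, had 13.5, 32.9 and 29.0 RPM in YH250 and 17.5, 27.4 and 26.8 RPM in DMSO. The median of the 5 was 0.10 and lay between -0.19 and 0.31 when 1 library was left out. Of the 4 genes below the minimum, H2-Eb2 reached 1.21 RPM in YH250 3 and 1.41 RPM in DMSO 3, and the 3 others stayed at or under 0.115 RPM.

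The promoters of H2-Aa and H2-Eb1 are shown because class II genes are known to be driven together from the X and Y boxes that precede their starts. They are again the 180 bases before the RefSeq start on GRCm38.p6, H2-Aa at chr17:34287824-34288003 on the minus strand and H2-Eb1 at chr17:34305687-34305866 on the plus strand. Capitals mark the Y box (CTGATTGG), the X box core (AGNAACNGA) and the X2 half-site (TGACG, matched on both strands in H2-Aa, where the matches overlap).
H2-Aa: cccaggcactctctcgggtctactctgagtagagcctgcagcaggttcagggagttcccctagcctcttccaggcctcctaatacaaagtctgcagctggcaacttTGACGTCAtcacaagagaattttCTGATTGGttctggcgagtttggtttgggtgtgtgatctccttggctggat
H2-Eb1: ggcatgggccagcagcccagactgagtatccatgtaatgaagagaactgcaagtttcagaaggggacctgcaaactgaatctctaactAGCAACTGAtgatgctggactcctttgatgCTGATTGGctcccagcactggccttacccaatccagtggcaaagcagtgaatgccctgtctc
The Y box begins at -51 in H2-Aa and at -62 in H2-Eb1. It was found in both class II chains with a RefSeq window and in 2 of 6 other class II genes, against 4.1% of all windows. The X box letters were found in 1 of these 2 chains and in 3 of 6 other class II genes, against 5.35% of all windows, and the X2 letters are common, at 20.8% of all windows. In H2-Oa, counted among the 6, the X box match begins at -4 on the minus strand and runs over the start. The interferon response letters were found in 1 of these 2 chains and in 3 of 6 other class II genes. A window was given for 15 of the 22 listed genes.

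Among the regulators, Nlrc5 and Rfxank were lower in YH250 at all 3 numbers, and neither passed the test. Nlrc5, the activator of class I genes (chromosome 8, 94434356 to 94527272), had 28.3, 15.7 and 22.4 RPM in YH250 1, 2 and 3, against 36.6, 23.7 and 36.8 RPM in DMSO 1, 2 and 3. The groups overlapped, since YH250 1 lay above DMSO 2. The log2 difference was -0.54 ± 0.32 (95% interval -1.26 to 0.19).

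Rfxank, a subunit of the RFX complex (chromosome 8, 70130794 to 70139154), had 21.9, 15.1 and 18.6 RPM in YH250, against 30.0, 31.1 and 25.2 RPM in DMSO, with no overlap. Its log2 difference was -0.62 ± 0.28 (95% interval -1.24 to 0.01), with an unadjusted p of 0.0537 and an adjusted p of 0.999 (limma). With the replicate block its unadjusted p was 0.0363 (limma, adjusted p = 0.66). Rfxank shares 31.0% of its 50-base stretches with other genes, mostly the overlapping Nr2c2ap, which limits these values. The other RFX subunits overlapped between groups, Rfx5 with 22.5, 33.5 and 17.6 RPM in YH250 and 20.6, 44.0 and 20.6 RPM in DMSO, and Rfxap with 36.9, 27.4 and 33.7 RPM in YH250 and 34.8, 39.6 and 22.9 RPM in DMSO. Rfx5 shares 22.3% of its 50-base stretches with other genes, among them B230398E01Rik.

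Ciita was near the minimum for testing, with 1.51, 3.64 and 2.08 RPM in YH250 and 0.279, 2.32 and 3.05 RPM in DMSO. Among the YH250 libraries Ciita was highest in YH250 2 and Cd74 in YH250 3, whereas among the DMSO libraries both were highest in DMSO 3 and lowest in DMSO 1. The median log2 difference of the 5 regulators was -0.16, and it ranged from -0.34 to 0.19 when 1 library was left out.

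**Figure D3:**
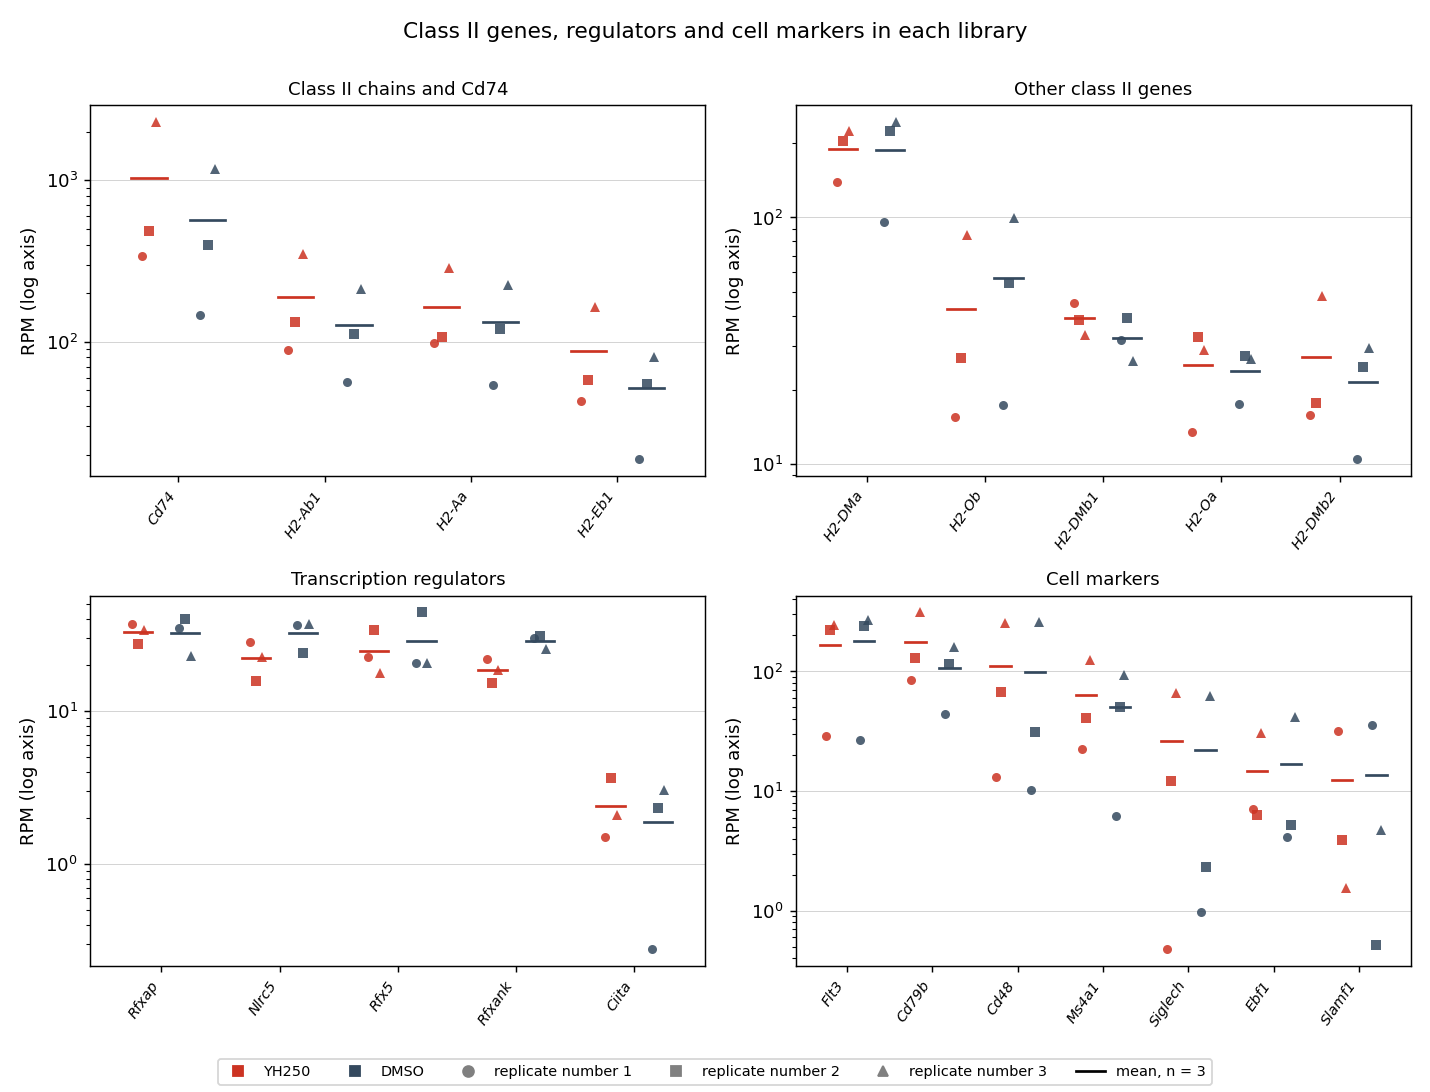
RPM on a log axis (y) for class II chains with Cd74, other class II genes, transcription regulators and cell markers (x, one gene per tick). Red is YH250 and dark slate is DMSO, circles, squares and triangles are replicate numbers 1, 2 and 3, and bars are means of 3 libraries. Triangles lie highest for Cd74, H2-Ab1, H2-Aa, H2-Eb1, Cd79b, Ms4a1 and Cd48 in both groups.

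Lists of genes that work beside the members were read from the same test, and none of their tested genes was called in the comparison of YH250 with DMSO. Of 7 genes of class II endosomal processing, 6 had higher mean log2 levels in YH250 and the median log2 difference was 0.37. Ctsb, a cysteine protease, had 149, 214 and 233 RPM in YH250 and 99.0, 103 and 139 RPM in DMSO, without overlap. Its log2 difference was 0.79, with an unadjusted p of 0.0131 (limma). Lgmn, which makes an endosomal endopeptidase, had 8.02, 20.6 and 19.5 RPM in YH250 and 7.13, 11.2 and 6.08 RPM in DMSO.

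Of 8 genes of the endoplasmic reticulum that serve class I, 5 had higher mean log2 levels in YH250, with a median of 0.15. Sec61a1, of the protein translocon, had 90.3, 107 and 94.5 RPM in YH250 and 72.5, 66.4 and 56.2 RPM in DMSO, without overlap. Pdia3, of the peptide loading complex, had 350, 368 and 438 RPM in YH250 and 234, 296 and 305 RPM in DMSO, also without overlap. The medians were 0.33 for 5 genes of the interferon gamma receptor, its kinases and their inhibitor Socs1, -0.05 for 7 promoter factors, 0.11 for 4 constitutive proteasome counterparts, 0.06 for 5 costimulatory genes and 0.26 for Cd1d1 and Mr1. Ifngr1, a receptor chain for interferon gamma, had 92.9, 163 and 106 RPM in YH250 and 58.7, 100 and 75.0 RPM in DMSO, higher at each number with overlap. Irf1, an interferon-induced factor of class I promoters, had 110, 116 and 89.9 RPM in YH250 and 75.7, 104 and 77.4 RPM in DMSO.

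Class II genes were called between replicate numbers, which no member was between treatments. In a fit with treatment and number as terms, 7 of the 41 members were higher in number 3 than in number 1 at an adjusted p under 0.05 (limma), against 5.6% of all tested genes, and 0 were lower, against 2.96%. Each number holds 2 libraries, and its meaning is not given in the labels. All 7 were class II genes, 4 of the 4 chains and 3 of the 5 other tested genes. The log2 differences were 2.87 ± 0.24 for Cd74, 1.97 ± 0.29 for H2-Eb1, 1.92 ± 0.21 for H2-Ab1 and 1.78 ± 0.25 for H2-Aa (SE), with adjusted p of 0.000138, 0.00345, 0.000641 and 0.00283. H2-Ob followed with 2.41 ± 0.29, H2-DMb2 with 1.47 ± 0.36 and H2-DMa with 1.02 ± 0.22 (limma, adjusted p = 0.00111, 0.0357 and 0.0215).

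The direction was the same within each treatment. Number 3 over number 1, Cd74 stood 6.77-fold higher in YH250 and 7.99-fold higher in DMSO, H2-Ab1 3.92-fold and 3.73-fold, and H2-Ob 5.45-fold and 5.74-fold. H2-DMb1 went the other way, at -0.35 ± 0.27, and H2-Oa had 0.82 ± 0.31 (limma, adjusted p = 0.138). The call for H2-DMa was lost without DMSO 1 or without DMSO 3, and that for H2-DMb2 without DMSO 1, DMSO 3 or YH250 3. The other 5 were called with any 1 library left out.

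For class I genes the same contrast gave a median of -0.17 over the 3 chains and -0.38 over the 13 other H2 genes, 11 of which were below 0. The chains went both ways, B2m at 0.53 ± 0.20, H2-D1 at -0.54 ± 0.20 and H2-K1 at -0.17 ± 0.20 (limma, adjusted p = 0.14, 0.134 and 0.652). H2-Q6 had -0.72 ± 0.22 and H2-T23 -0.50 ± 0.18, with adjusted p of 0.0763 and 0.122 (limma). After quantile normalization H2-K1, H2-D1, H2-Q6, H2-Q7 and H2-T23 were called lower in number 3, with values from -0.62 to -1.12. The B2m difference then fell to 0.07 (limma, adjusted p = 0.753). The 5 immunoproteasome genes were above 0, led by Psme2 at 0.77 ± 0.21 (adjusted p = 0.054) and Psmb8 at 0.57 ± 0.18 (adjusted p = 0.085). The regulators did not pass, Ciita having 0.98 ± 0.54 and Nlrc5 -0.16 ± 0.28.

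Between numbers 2 and 1, 0 of 41 members were called, against 0.177% of all genes higher and 0.0221% lower, while 11 had an unadjusted p under 0.05, against 14.3% of all genes. Between numbers 3 and 2, 4 members were called higher (Cd74, H2-Aa, H2-Ab1 and H2-Ob), against 3.67% of all genes, and H2-D1 lower, at -0.94 ± 0.20 (limma, adjusted p = 0.0273), against 2.64%.

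**Figure D4:**
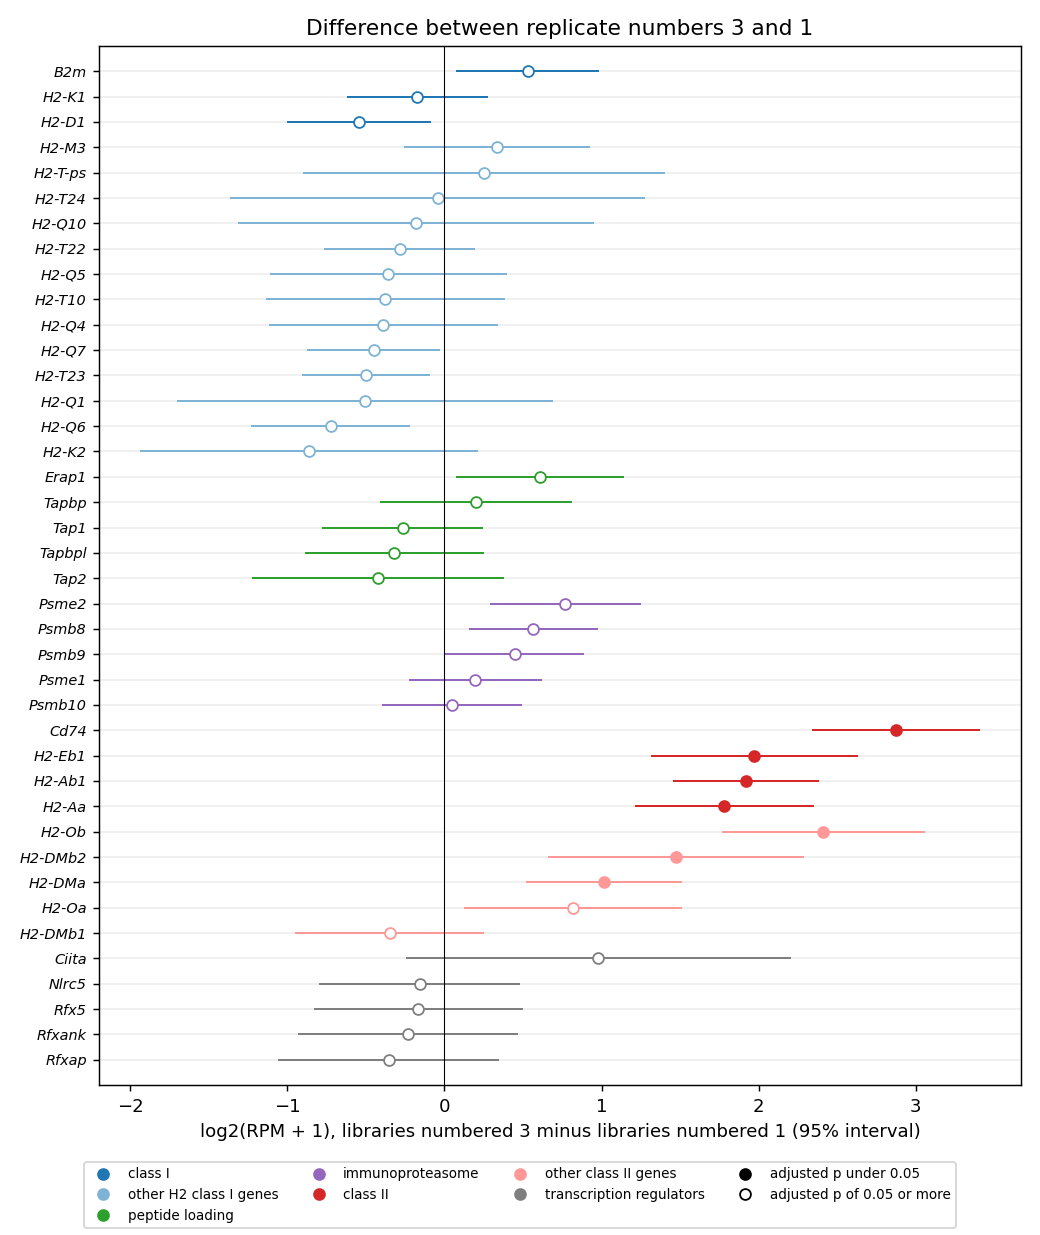
Difference in log2(RPM + 1) between the libraries numbered 3 and those numbered 1 (x axis, point and 95% interval, 2 libraries per number, treatment as a second term) for 40 tested genes (y axis, grouped and coloured by role). Filled points have an adjusted p under 0.05. All 7 filled points are class II genes at 1.02 to 2.87, and most class I genes lie left of 0.

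Markers of several cell types moved with the class II genes between the numbers, and their part in this was not tested. Over all tested genes, 5.6% were called higher in number 3 than in number 1 and 2.96% lower. Of 7 tested B cell markers 6 were called higher. Those of smallest p were Cd79b at 1.85, Ms4a1 at 3.07 and Ebf1 at 2.51 on the log2 scale, and the largest difference was 3.50 for Cd79a. Of 7 tested dendritic cell markers 4 were called higher, Flt3 at 3.17, Siglech at 5.27, Ccr9 at 4.20 and Itgax at 3.50. Summed over the 8 markers of that list, the level was 40.0, 261 and 372 RPM in YH250 1, 2 and 3 and 34.8, 252 and 393 RPM in DMSO 1, 2 and 3. Most of each sum was Flt3 alone, with 28.9, 224 and 244 RPM in YH250 and 26.6, 240 and 271 RPM in DMSO. Siglech lay between 0.477 and 66.4 RPM and Ccr9 between 0.345 and 37.2 RPM, both highest in number 3 of each group. The rest of the list had lower maxima. Itgax and Batf3 lay between 0 and 11.9 RPM and between 0 and 1.59 RPM. Clec9a, a marker of conventional dendritic cells, lay between 0 and 6.13 RPM. Xcr1 lay between 0.361 and 6.43 RPM and Zbtb46 between 1.04 and 4.71 RPM.

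Of 8 T and NK cell markers 2 were called higher, and of 8 monocyte and macrophage markers 1, against 5.6% of all tested genes. Their sums over the list were 41.3, 67.6 and 118 RPM in YH250 and 14.5, 21.6 and 110 RPM in DMSO for T and NK cells, and 235, 280 and 158 RPM in YH250 and 150, 217 and 188 RPM in DMSO for monocytes and macrophages. Of the 6 stem cell markers 4 were called lower in number 3, against 2.96% of all tested genes. They were Slamf1 at -3.18, Procr at -2.19, Mecom at -1.97 and Hlf at -1.19. Ly6a, which encodes Sca1, was called higher at 1.47. Cd48 was called higher at 4.35 and Itga2b, which encodes the excluded CD41, lower at -2.50. Ctss, the protease that cuts the invariant chain, was called higher at 3.94, with 20.4, 69.2 and 256 RPM in YH250 1, 2 and 3 and 9.48, 50.3 and 203 RPM in DMSO 1, 2 and 3.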

How the data were processed

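The deposited file gives 1 signal value per gene and library, made by the authors from reads in genes. Tools named in the submitters' processing notes, without roles, are TopHat2 2.0.8, CASAVA 1.8.2 and Partek, and the build is mm10. The unit was worked out from the values. Every column has a minimum of 1, and what lies above 1 comes in steps of one small size, so values were read as RPM plus an offset of 1. Of the low values (up to 20 reads), 60.5% to 68.3% lay within 0.1 of a whole read, so no count test was used.

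Symbols matched 40254 of 41128 IDs. Positions, exon lengths and transcripts are from GENCODE M21 (GRCm38, also called mm10). The offset was subtracted, genes averaging 1 RPM or more were kept (13597), and limma 3.58.1 (R 4.3.3, trend and robust) was run on log2(RPM + 1), with Benjamini-Hochberg adjustment at 0.05 over all genes. This scale makes fold changes of low genes too small. Same-numbered libraries correlated above the limit of 0.1 for pairing, so the unadjusted p with the block is given for each member where it was under 0.05. YH250 1 with DMSO 2 (0.144) and YH250 2 with DMSO 1 (0.109) also passed it, so this limit does not single out same-numbered pairs. The text names every listed gene, every other H2- gene of at least 1 RPM, all sort markers, and up to 3 genes of smallest p from each other list. Outside this rule, Lepr, H2-T3, H2-Eb2, H2-Ea-ps, Procr, Mecom, Hlf, Pax5, Cd79a, Batf3, Itgax, Clec9a, Xcr1 and Zbtb46 were named after their values were seen. The members, lists and contrasts were chosen with earlier results of these data known. The fits were tried on simulated data with a smaller spread of genes than here and large planted differences. That trial does not show how small a difference the fits could find in these libraries. The sources used here do not give the strand use in counting, so overlapping genes are uncertain. Of the stem cell markers, 1 is not reported here.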

Additional observations from a re-analysis of the deposited data

How the results depend on the processing

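Alternatives to the analysis were other pseudocounts (0.5 and 5), no minimum mean or one of 5 RPM, TMM-type scaling, quantile normalization, the replicate block, and leaving out each library. Leaving out both libraries numbered 1 or 3 was chosen after seeing the data. The count of members and of all genes called between YH250 and DMSO was 0 under all of these, the replicate block included. The smallest adjusted p of a member was 0.66 with the block and 0.889 to 1.00 otherwise. None of the members' signs is called in this comparison, and up to 13 of 41 differed (without YH250 3), with 7 after quantile normalization. With the replicate block the number of all genes at an unadjusted p under 0.05 was 1012, against 231 without it.

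Between numbers 3 and 1, members called were 7, with 3 when no minimum mean was set, 11 after quantile normalization and 5 to 10 with 1 library left out. The calls lost when no minimum mean was set were those of H2-Aa, H2-Eb1, H2-DMa and H2-DMb2 (limma, adjusted p = 0.0697, 0.075, 0.142 and 0.183), and quantile normalization lost H2-DMa (0.0768). All genes called were 1164, with 180 when no minimum mean was set. With 1 library left out they ranged from 414 (without DMSO 3) and 485 (without DMSO 1) to 2901 (without DMSO 2) and 2944 (without YH250 2); the cause was not tested. The median of the regulators, -0.16, was -0.35 with a minimum of 5 RPM, where Ciita drops out, -0.30 without both libraries numbered 1, and -0.34 to 0.19 with 1 library left out. Depth of 21.9 to 31.1 reads per RPM limits genes near 1 RPM, such as Ciita and H2-Q1.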
